A study of Mus musculus with 30 samples.

Results

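mRNA of 9 genes of the cholesterol synthesis pathway was followed in the aortae and kidneys of mice on a standard fat diet (SFD) or a high fat diet (HFD). The genes were Hmgcs1, Idi1, Fdps, Fdft1, Sqle, Lss, Cyp51, Dhcr7 and Insig1, a part of the pathway given by name and listed in both count tables, and they are 9 of the 41128 genes in each table. All 9 had enough reads to be tested in both tissues, out of 14796 genes tested in aortae and 15034 in kidneys. The mice carried a Cre recombinase driven by the promoter of smooth muscle myosin heavy chain (labelled SMMHC-Cre+/-) and inducible by tamoxifen. In knockout mice (KO) both Egfr alleles were flanked by loxP sites (EGFRflox/flox), so that the gene for the epidermal growth factor receptor (EGFR) was to be removed from vascular smooth muscle cells only, and the wild-type mice (WT) had no such sites. All mice, WT and KO, were male on a C57Bl6J background and received 1 mg of tamoxifen per day for 5 days. The diets began 7 days later, at an age of 6 weeks, and lasted 18 weeks. RNA was depleted of ribosomal RNA and sequenced from 3 WT-SFD, 4 WT-HFD, 3 KO-SFD and 4 KO-HFD aortae and from 4 kidneys of each of the 4 groups. Each library is 1 mouse, and 3 mice gave both organs. p values therefore measure the spread between mice. Total counts ran from 6403699 to 13052870 per aorta and from 16354880 to 28331314 per kidney, so that a value in the kidney rests on more reads than the same value in the aorta.

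Cells make cholesterol from acetyl-CoA. In the mevalonate steps, Hmgcs1 makes HMG-CoA, Idi1 interconverts the 5-carbon isoprenoid units and Fdps joins them to farnesyl diphosphate. In the steps from there to cholesterol, Fdft1 makes squalene, Sqle oxidises it, Lss closes it to lanosterol, Cyp51 removes a methyl group from lanosterol and Dhcr7 catalyses a late reduction. When sterols are scarce in the membrane of the endoplasmic reticulum, SREBP2, the product of Srebf2, is released and raises transcription of this pathway. When sterols are plentiful, Insig1, itself a target of the SREBPs, keeps SREBP2 in that membrane. SREBP1, the product of Srebf1, acts mainly on the genes of fatty acid synthesis.

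The 9 genes lie on 7 chromosomes of build GRCm38, as protein-coding genes of the annotation GENCODE vM21. Hmgcs1 lies at chr13:119690379-119708260 and Idi1 at chr13:8885501-8892451, both on the plus strand of chromosome 13. Insig1 lies at chr5:28071363-28078662 on the plus strand and Cyp51 at chr5:4081145-4104746 on the minus strand of chromosome 5. Fdps is at chr3:89093588-89101959 (minus strand), Dhcr7 at chr7:143823145-143848410 (plus strand) and Lss at chr10:76531588-76557138 (plus strand). Fdft1 is at chr14:63145150-63179578 (minus strand) and Sqle at chr15:59315077-59331192 (plus strand). Some of their reads could have been counted for another gene, since the strand setting and the handling of reads with several matches are not given in the sources used here. Of all 100-base windows of their transcripts, 21.9% of those of Idi1 and 21.4% of those of Fdps also occur in other genes, including pseudogenes (for Idi1 the processed pseudogene Gm13502). The share was 18.3% for Fdft1, whose exons overlap those of Ctsb on the opposite strand over 774 bases, and 8.22% for Hmgcs1. It was at most 1.51% for the other 5 genes, among them Cyp51, which shares 166 exon bases with Akap9 on the opposite strand. Fdps shares 1124 exon bases (26.7% of its exons) with Gm43738, a protein-coding gene on the same strand that the count tables do not list.

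SREBPs bind sterol regulatory elements next to sites of the factors NF-Y and Sp1. Promoters are shown for Idi1, Cyp51 and Insig1, which fell together in the kidney on HFD as described below, and for Hmgcs1, which did not pass the test there. Each window holds 300 bases, 250 before and 50 after the gene's start, from RefSeq (GRCm38.p6), and is written 5′ to 3′ along the gene's own strand. Capitals mark CCAAT, the NF-Y core, on either strand (ATTGG on the other) and TCACNCCAC, a form of the sterol regulatory element.
Idi1 (chr13:8885356-8885655, plus strand): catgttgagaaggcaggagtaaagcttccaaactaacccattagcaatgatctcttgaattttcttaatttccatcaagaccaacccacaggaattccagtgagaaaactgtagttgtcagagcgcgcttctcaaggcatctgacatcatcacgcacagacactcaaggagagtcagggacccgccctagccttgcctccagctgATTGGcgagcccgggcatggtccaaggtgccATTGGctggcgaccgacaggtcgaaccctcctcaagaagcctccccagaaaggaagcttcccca
Cyp51 (chr5:4104648-4104947, minus strand): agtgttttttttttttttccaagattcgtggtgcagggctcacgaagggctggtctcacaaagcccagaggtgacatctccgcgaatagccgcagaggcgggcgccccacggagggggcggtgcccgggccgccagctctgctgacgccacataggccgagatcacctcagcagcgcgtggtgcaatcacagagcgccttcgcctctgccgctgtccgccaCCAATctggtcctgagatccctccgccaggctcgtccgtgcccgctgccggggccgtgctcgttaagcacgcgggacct
Insig1 (chr5:28071162-28071461, plus strand): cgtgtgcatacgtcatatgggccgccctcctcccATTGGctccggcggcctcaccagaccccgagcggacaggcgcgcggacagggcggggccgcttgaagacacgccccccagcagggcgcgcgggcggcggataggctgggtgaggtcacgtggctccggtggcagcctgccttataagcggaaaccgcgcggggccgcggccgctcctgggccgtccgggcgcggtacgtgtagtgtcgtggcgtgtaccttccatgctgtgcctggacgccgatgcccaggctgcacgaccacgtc
Hmgcs1 (chr13:119690101-119690400, plus strand): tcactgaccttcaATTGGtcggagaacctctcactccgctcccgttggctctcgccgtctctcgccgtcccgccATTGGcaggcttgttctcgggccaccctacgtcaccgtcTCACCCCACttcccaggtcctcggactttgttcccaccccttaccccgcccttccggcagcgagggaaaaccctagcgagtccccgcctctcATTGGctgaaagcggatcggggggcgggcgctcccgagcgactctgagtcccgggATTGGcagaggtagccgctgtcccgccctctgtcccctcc

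The Idi1 window holds 2 NF-Y cores, the Cyp51 and Insig1 windows 1 each and the Hmgcs1 window 4. RefSeq windows were matched for 6 of the genes (also Lss and Dhcr7, the latter with 3 start sites), and none for Sqle, Fdps or Fdft1. CCAAT, searched on both strands, occurred in 6 of these 8 windows, at least 1 for each of the 6 genes, against 37.4% of the 32851 promoter windows of the mouse. The Sp1 core GGGCGG occurred in 7 of the 8 windows against 35.7% of all. TCACNCCAC occurred only in the window of Hmgcs1, 137 bases before its start, against 1.24% of all windows. No 2 matches of these motifs overlapped in the 8 windows. A match describes these letters and does not show binding.

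Levels are given as FPM, the count divided by the library's TMM-normalised total and multiplied by 1000000. To set genes side by side, FPM was divided by the kb of all annotated exons of a gene, merged (3093 bases for Insig1, 10787 for Lss). A gene whose main mRNA is shorter than this length appears too low, so the order depends on the annotation. By this measure the kidney held most Hmgcs1 (93.5 ± 14.4 FPM per kb of exon, SD over 16 mice). Cyp51 (56.4 ± 12.4), Idi1 (30.0 ± 12.5), Insig1 (20.3 ± 5.83) and Sqle (15.1 ± 3.73) followed. Fdft1 (6.20 ± 1.29), Dhcr7 (5.15 ± 0.945), Lss (2.59 ± 0.342) and Fdps (1.06 ± 0.296) were lower. The mean ± SD ranges of the neighbours Idi1 and Insig1, Insig1 and Sqle, and Fdft1 and Dhcr7 in this order overlapped. These ranges hold all 4 groups, and the levels of 2 genes within the same mouse were not compared. In the aorta the first was Insig1 (12.9 ± 12.1 FPM per kb, SD over 14 mice), with a spread as wide as its mean. By group, Insig1 was at 27.2 FPM per kb in WT-SFD and at 6.12 in KO-HFD, where Hmgcs1 was higher (6.73). Hmgcs1 followed (8.25 ± 3.56), then Cyp51 (3.69 ± 0.674), Fdft1 (3.43 ± 0.867), Idi1 (3.25 ± 1.34) and Sqle (2.08 ± 0.452). Lss (1.39 ± 0.243), Dhcr7 (0.992 ± 0.510) and Fdps (0.526 ± 0.266) were last. In the aorta the mean ± SD ranges of all neighbours in this order overlapped except those of Hmgcs1 and Cyp51, again without a comparison within mice. The aortae and kidneys were sequenced at different places, so levels in the tissues stand side by side with no test.

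Egfr mRNA, the target of the deletion, was lower in KO than in WT aortae and overlapped between the genotypes in the kidney. In the aorta it was 46.8 ± 7.41 FPM (SD, n = 3) in WT-SFD, 57.6 ± 5.71 (n = 4) in WT-HFD, 30.1 ± 4.73 (n = 3) in KO-SFD and 35.3 ± 6.09 (n = 4) in KO-HFD. WT and KO did not overlap on either diet. The aorta also holds cells in which this Cre is not active. In the kidney, where smooth muscle is a small part of the tissue, it was 50.4 ± 8.13, 45.9 ± 8.30, 53.6 ± 5.77 and 43.1 ± 2.08 FPM (n = 4 each) in the same order of groups. Of 8 smooth muscle markers, 6 had counts in both tissues, with Acta2 the most abundant of them in the aorta (4235 to 8745 FPM). The other markers of that list, Tagln and Cnn1, lie on chromosome 9, of which no gene had a count in either tissue. Their missing counts therefore do not describe the tissue. Proximal tubule markers were present in the kidney, led by Kap (7973 to 25027 FPM). The podocyte markers were detected in both organs, and Podxl, which endothelium also expresses, led them (53.8 to 124 FPM in the aorta and 98.5 to 164 FPM in the kidney).

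In the kidney, 6 of the 9 genes were lower on HFD than on SFD when the diet effect was averaged over WT and KO, and none was higher. Idi1 had the strongest response, falling from 139.5 ± 32.0 to 70.8 ± 20.2 FPM (SD, n = 8 mice per diet). Cyp51, Insig1, Sqle, Fdft1 and Dhcr7 fell less, whereas Hmgcs1, Lss and Fdps did not pass the test. A gene counted as changed where its p from edgeR (quasi-likelihood fit), adjusted by Benjamini-Hochberg over all 15034 genes tested, was under 0.05. By this call 1.60% of all genes tested were lower on HFD and 2.89% higher. At the study's stricter limit of 0.001, 1 member was called (Idi1), against 0.140% of all genes that were lower. The median log2 fold change of the 9 genes was -0.40 against -0.0058 for all genes tested, and 8 of the 9 were below 0 against 51.4% of all. The 9 genes were chosen with earlier results of these data known, so such shares here and below are a description. In a whole organ, less mRNA per cell and fewer cells that make it cannot be told apart.

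**Figure D1:**
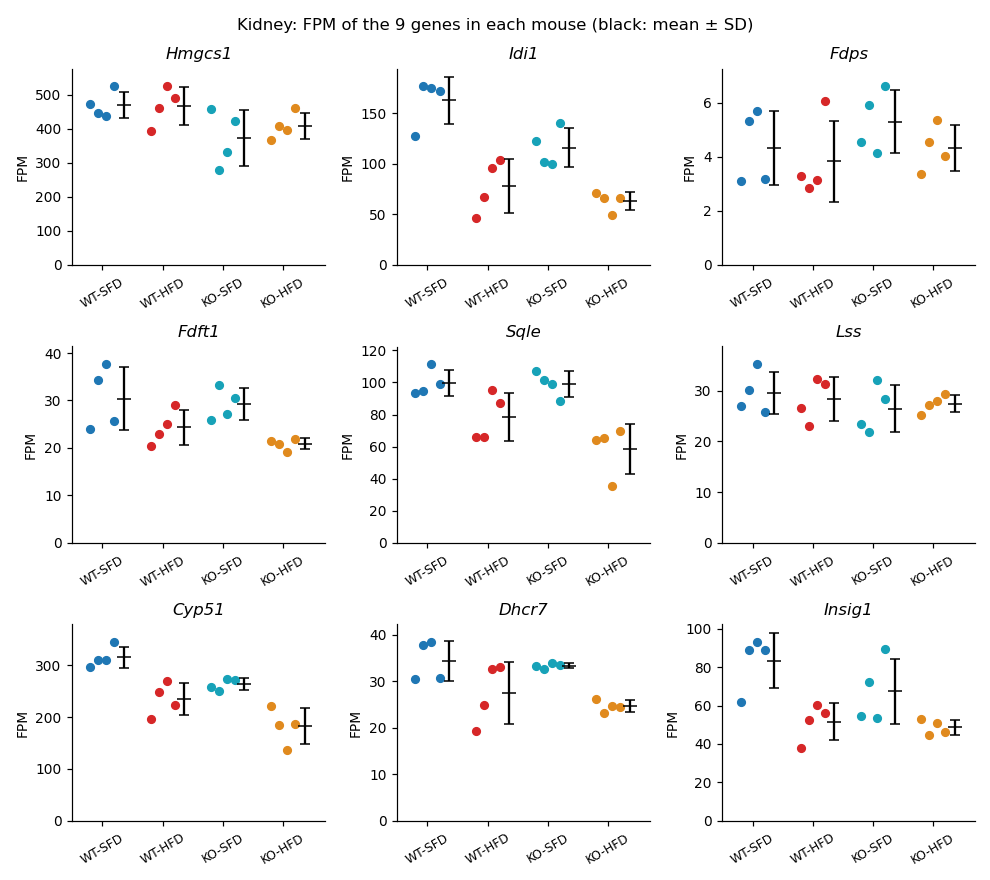
FPM of each of the 9 genes in every kidney (points, 4 mice per group, y axis from 0 FPM) with the group mean ± SD in black. Idi1 lies at 128 to 177 FPM in WT-SFD and at 46.2 to 104 FPM in WT-HFD with no overlap, whereas the groups of Hmgcs1 and Lss overlap on both diets.

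Among the mevalonate enzymes the response was uneven. Idi1, the isomerase, was at 128, 177, 175 and 172 FPM in the WT-SFD kidneys and at 46.2, 66.8, 96.1 and 104 FPM in WT-HFD. In KO-SFD it was at 123, 102, 99.4 and 140.2 FPM and in KO-HFD at 70.7, 66.4, 49.6 and 66.4 FPM. Within each genotype every HFD kidney lay below every SFD kidney, although the highest WT-HFD kidney lay above the 2 lowest KO-SFD kidneys. The averaged diet effect on Idi1 had the smallest adjusted p of the 9 (log2 fold change -0.97, SE 0.15, adjusted p = 0.00068 by edgeR). Hmgcs1, at the entry to the pathway, held 421 ± 79.3 FPM on SFD and 438 ± 54.4 FPM on HFD (log2 fold change 0.063, SE 0.10, adjusted p = 0.791), with single kidneys from 279 to 524 FPM and overlapping diets. Fdps, the farnesyl diphosphate synthase, was low in counts, at 4.81 ± 1.29 FPM on SFD and 4.08 ± 1.16 FPM on HFD (log2 fold change -0.23, SE 0.19, adjusted p = 0.56). Its groups overlapped too, and its counts are open to the overlap with Gm43738 given above.

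Of the 5 enzymes between farnesyl diphosphate and cholesterol, 4 fell. Cyp51, the lanosterol demethylase, was at 296, 311, 310.5 and 344 FPM in WT-SFD and at 197, 248, 269 and 223 FPM in WT-HFD. In KO-SFD it was at 257, 249.8, 274 and 271 FPM and in KO-HFD at 222, 185, 137 and 187 FPM. As for Idi1, the diets did not overlap within a genotype, and 1 WT-HFD kidney reached the range of KO-SFD (log2 fold change -0.48, SE 0.090, adjusted p = 0.00448 for the averaged effect). Sqle, the squalene epoxidase and a second control point of the pathway, was at 93.2, 94.6, 111 and 98.9 FPM in WT-SFD and at 65.7, 65.9, 95.6 and 87.1 FPM in WT-HFD. It was at 107, 102, 99.3 and 88.4 FPM in KO-SFD and at 64.2, 65.6, 35.2 and 69.4 FPM in KO-HFD. Here 1 WT-HFD kidney lay above 2 of the WT-SFD kidneys, whereas the diets were apart in KO, where replicate 3 on HFD was lowest of all (log2 fold change -0.55, SE 0.12, adjusted p = 0.0144).

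Fdft1 and Dhcr7, the first and the last of these 5 in the order of the steps, fell less. Fdft1, which commits farnesyl diphosphate to sterols, was at 23.9, 34.3, 37.6 and 25.6 FPM in WT-SFD, 20.3, 23.0, 25.0 and 29.1 in WT-HFD, 25.8, 33.4, 27.1 and 30.4 in KO-SFD and 21.5, 20.9, 19.2 and 21.8 in KO-HFD. The WT groups overlapped, and the KO groups did not (log2 fold change -0.40, SE 0.10, adjusted p = 0.0324). Dhcr7, the sterol reductase, was at 30.5, 37.8, 38.4 and 30.8 FPM in WT-SFD, 19.3, 24.8, 32.6 and 33.1 in WT-HFD, 33.3, 32.6, 33.9 and 33.4 in KO-SFD and 26.3, 23.2, 24.6 and 24.5 in KO-HFD. KO-SFD kidneys spanned less than 2 FPM and all lay above KO-HFD, while 2 of the WT-HFD kidneys fell within the range of WT-SFD (log2 fold change -0.38, SE 0.10, adjusted p = 0.0361). Lss, the cyclase between Sqle and Cyp51, held 28.0 ± 4.41 FPM on SFD and 27.9 ± 3.10 FPM on HFD, with a log2 fold change of -0.0052 (SE 0.10, adjusted p = 0.987). The calls of Fdft1 and Dhcr7 were near the limit. Without WT-SFD replicate 2 or 3, WT-HFD replicate 1, 2 or 3, KO-SFD replicate 2 or 4, or KO-HFD replicate 2, 3 or 4, left out singly, the adjusted p of Fdft1 was 0.0533 to 0.0681. Leaving out WT-SFD replicate 2 or 3, WT-HFD replicate 2, any KO-SFD replicate or KO-HFD replicate 2, 3 or 4 gave Dhcr7 an adjusted p of 0.0525 to 0.0754. Idi1, Cyp51, Insig1 and Sqle passed in each of the 16 omissions.

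Insig1, the retention protein that SREBPs also induce, fell with the enzymes. It was at 62.1, 89.0, 92.9 and 89.1 FPM in WT-SFD and at 37.9, 52.4, 60.2 and 55.9 FPM in WT-HFD. In KO-SFD it was at 54.3, 72.4, 53.4 and 89.3 FPM and in KO-HFD at 52.9, 44.4, 51.0 and 46.0 FPM. The WT diets were apart by less than 2 FPM at their nearest kidneys, and the KO diets by less than 1 FPM (log2 fold change -0.58, SE 0.12, adjusted p = 0.0106 for the averaged effect).

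Taken within each genotype, with 4 mice per diet, fewer of the 9 genes passed. In WT kidneys, Idi1 was the 1 gene called lower on HFD (log2 fold change -1.06, SE 0.21, adjusted p = 0.0179), against 0.133% of all genes tested, and none was called at 0.001, against 0.00665% of all. Insig1 (log2 fold change -0.69, SE 0.17, adjusted p = 0.09) and Cyp51 (log2 fold change -0.43, SE 0.13, adjusted p = 0.194) missed the limit in WT by edgeR. DESeq2 called both (adjusted p = 0.0112 for Insig1 and 0.0496 for Cyp51). Idi1, Insig1 and Cyp51 were also the 3 members whose WT diets did not overlap, with HFD lower, against 1.99% of all genes. All 9 log2 fold changes were below 0 in WT, against 51.1% of all genes, with a median of -0.32. The call of Idi1 in WT was not met without WT-SFD replicate 2, 3 or 4 or WT-HFD replicate 2 (adjusted p = 0.0504 to 0.0721, which left 0 members called). Its log2 fold change ran from -1.23 to -0.88 over the 16 omissions. Insig1 passed as well without WT-SFD replicate 1 (adjusted p = 0.0393, 2 members called). With only the 2 groups compared in the edgeR fit, Idi1 stood at -1.06 and was not called (adjusted p = 0.0839). With the adrenal cortex, proximal tubule or distal nephron marker covariate described below, it stood at -0.88, -1.03 and -0.99 (adjusted p = 0.0574 to 0.116 by edgeR).

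In KO kidneys, Idi1 (log2 fold change -0.88, SE 0.21, adjusted p = 0.0344), Sqle (log2 fold change -0.76, SE 0.17, adjusted p = 0.028) and Cyp51 (log2 fold change -0.53, SE 0.13, adjusted p = 0.0372) were lower on HFD. These are 3 of the 9 genes against 0.772% of all genes tested, and none was called at 0.001, against 0.0200% of all. The KO diets did not overlap for 6 members, the same 6 that were called in the averaged effect, against 3.85% of all genes. The median log2 fold change in KO was -0.47, with 7 of the 9 below 0 against 50.7% of all genes. These calls lay near the limit, and leaving out 1 kidney often ended them. The count was 0 without KO-SFD replicate 1 or 2, 1 without KO-SFD replicate 3 or 4 or KO-HFD replicate 2, 3 or 4, and 4 without WT-HFD replicate 1, where Dhcr7 passed (adjusted p = 0.0439). Without WT-SFD replicate 3 or WT-HFD replicate 4, which enter through the shared spread, it was 2. Over all 16 omissions the log2 fold changes ran from -0.94 to -0.77 for Idi1 (call lost in 6), -0.85 to -0.57 for Sqle (lost in 3) and -0.63 to -0.40 for Cyp51 (lost in 9). The count was 1 with library totals in place of TMM and with the adipocyte marker covariate described below. It was 0 with the adrenal cortex, proximal tubule or distal nephron covariate, where the median over the 9 genes was -0.29, -0.43 and -0.41.

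**Figure D2:**
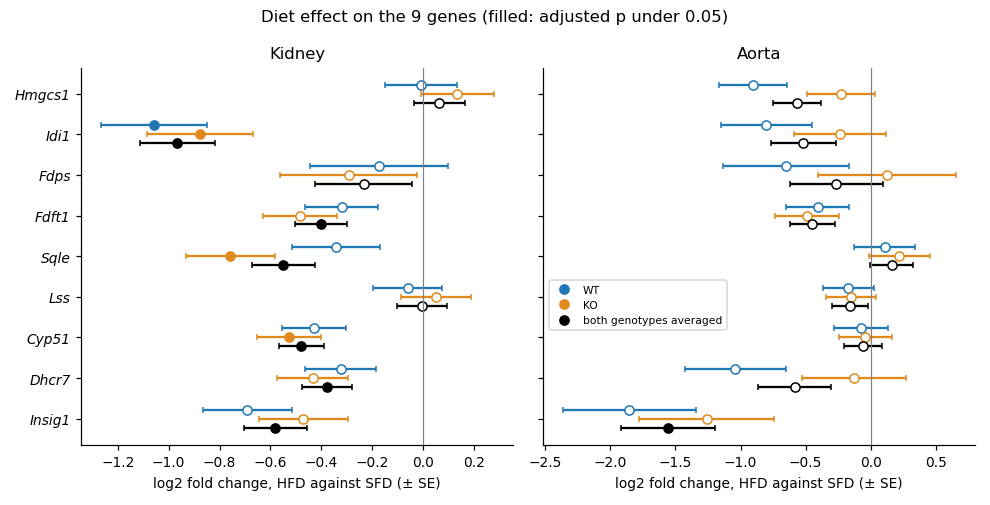
Log2 fold change of HFD against SFD (x axis, ± SE) for the 9 genes in kidney and aorta, in WT, in KO and averaged over both genotypes. Filled points had an adjusted p under 0.05; in the kidney the 6 filled averaged points lie between -0.97 and -0.38, and in the aorta the 1 filled point is Insig1 at -1.56.

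The diet effect was not shown to differ between the genotypes. In the test of that difference (the diet effect in KO minus that in WT), none of the 9 genes and none of all 15034 genes passed by edgeR. The unadjusted p was under 0.05 for 3.23% of all genes and for none of the 9, and DESeq2 called 1 gene, not a member. The difference was -0.42 (SE 0.25) for Sqle, 0.22 (SE 0.25) for Insig1 and 0.18 (SE 0.29) for Idi1 on the log2 scale. No difference in the diet effect was detectable at this spread between mice.

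Between KO and WT kidneys, none of the 9 genes passed the limit on either diet. On SFD edgeR called none of them, against 0.0133% of all genes (2 genes). Idi1 (log2 fold change -0.49, unadjusted p = 0.0302, adjusted p = 0.573) and Hmgcs1 (-0.34, unadjusted p = 0.0299, adjusted p = 0.573) had an unadjusted p under 0.05 in edgeR, 2 of 9 against 8.37% of all genes. On SFD the KO kidneys did not overlap the WT kidneys for Cyp51 alone, against 2.09% of all genes that were lower without overlap, and the median log2 fold change was -0.16. On HFD none was called either, against 0.00665% of all genes (1 gene). The values were -0.42 for Sqle (unadjusted p = 0.0276, adjusted p = 1 by edgeR) and -0.36 for Cyp51 (unadjusted p = 0.0121, adjusted p = 1), 2 of 9 at an unadjusted p under 0.05 against 1.65% of all genes, and the median for KO against WT was -0.19. These comparisons share their mice with the diet comparisons above.

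The same pathway holds genes beyond these 9, and they were read from lists of pathway members. Of the mevalonate steps, 7 of 8 listed genes were tested in the kidney, and 3 fell on HFD (averaged effect) and none rose. Beside Idi1 these were the kinases Mvk (log2 fold change -0.49, SE 0.13, adjusted p = 0.0399 by edgeR) and Pmvk (-0.47, SE 0.13, adjusted p = 0.0441). Of the steps from farnesyl diphosphate to cholesterol, 10 of 13 listed genes were tested and 4 fell, all of them among the 9. Msmo1, the methyl sterol oxidase (-0.49, SE 0.17, adjusted p = 0.125), did not pass. The median was -0.47 for the mevalonate steps and -0.34 for the later steps, beside -0.0058 for all genes tested.

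Of the genes that control the SREBPs, 9 of 12 were tested and Insig1 was the 1 that fell. Srebf2 itself, named here after its value was seen, had a log2 fold change of -0.086, SE 0.063, adjusted p = 0.509, and Srebf1 of -0.18, SE 0.14, adjusted p = 0.561. No gene passed among 3 tested SREBP2 targets outside synthesis (median -0.13). Of the genes of fatty acid synthesis, on which SREBP1 acts, 5 of 11 tested fell and none rose, with a median of -0.61. Among them, Fads1, a desaturase of polyunsaturated fatty acids, fell by 0.49 on the log2 scale (adjusted p = 0.000527) and Scd1, the stearoyl-CoA desaturase, by 1.44 (adjusted p = 0.00916). The 2 acetyl-CoA carboxylases Acaca and Acacb fell by 0.89 (adjusted p = 0.0308) and 0.61 (adjusted p = 0.0287), and the synthase Fasn by 1.28 (adjusted p = 0.042). Within WT alone, Fads1 was the 1 gene of this list that fell (-0.57, adjusted p = 0.00899 by edgeR), and in KO alone Acaca (-1.26), Scd1 (-1.79) and Fads1 (-0.41).

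**Figure D3:**
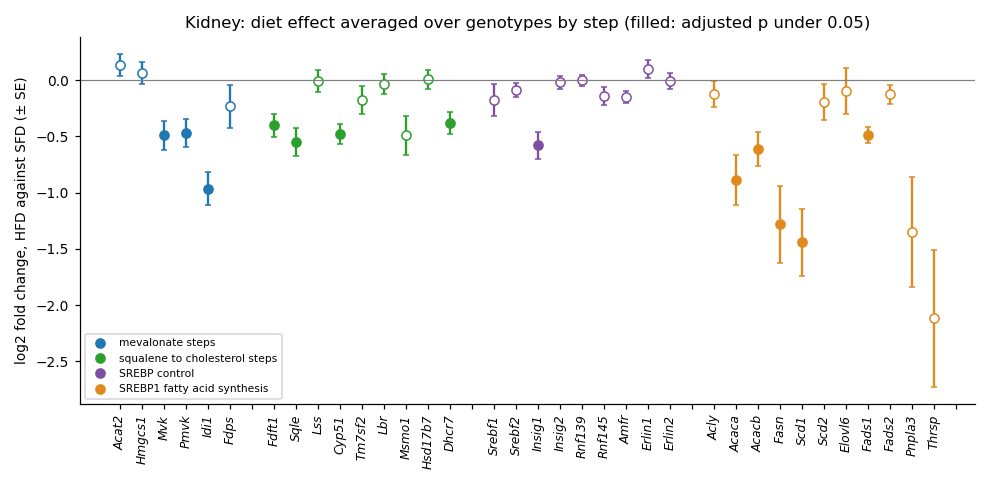
Averaged diet effect in the kidney (y axis, log2 fold change of HFD against SFD ± SE) for tested genes of 4 lists, in the order of the steps; not every tested gene is drawn. Filled points had an adjusted p under 0.05, and all of them lie below 0. They are 3 in the mevalonate steps, 4 from farnesyl diphosphate to cholesterol, 1 in SREBP control and 5 in fatty acid synthesis.

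Across the 16 kidneys the 9 genes varied together to different degrees. Pearson's r of log2 FPM between pairs of the 9 genes ran from -0.318 (Hmgcs1 and Fdps) to 0.890 (Idi1 and Dhcr7), with a median of 0.380. Among the 6 genes that fell in the averaged effect it ran from 0.569 (Sqle and Insig1) to 0.890, and these 6 are taken for their diet difference. With each value centred on its group, r among the 6 ran from 0.0744 (Sqle and Insig1) to 0.816 (Idi1 and Dhcr7), with a median of 0.602 over 15 pairs. The genes outside all lists whose log2 values were most like the mean of the 9 (each standardised over the kidneys) were Nxpe3 (r = 0.923), Gm13502 (0.900), Nab1 (0.895), X1300002K09Rik as the tables spell it (0.881) and Sumo3 (0.862). Without the 2 kidneys farthest from the median, r was 0.881, 0.863, 0.885, 0.838 and 0.787. Gm13502 is the processed pseudogene that shares windows with Idi1, and reads from those windows cannot be told apart. Of the listed genes, Fads1 and Msmo1 came closest (r = 0.914 each). These values describe 16 libraries that share the diet contrast and the normalisation, and no p is given for them.

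Markers of other kidney cells were read beside this result. The summed level of 7 distal nephron and collecting duct markers, led by Umod, was 6472 to 9332 FPM on SFD and 4745 to 7701 FPM on HFD. In the averaged effect 1 of the 7 fell and 1 rose. That of 10 proximal tubule markers, led by Kap, was 27589 to 41044 FPM on SFD and 21438 to 36187 FPM on HFD, and 3 of the 10 rose and none fell. The 16 adipocyte markers summed to 115 to 855 FPM on SFD and 113 to 265 FPM on HFD, led by Fabp4, and of 15 tested 1 fell and 1 rose. None of the markers of these 3 lists was at 0 in all kidneys. The adrenal cortex, a gland beside the kidney that turns cholesterol into steroid hormones, was read from 8 markers. Their sum was 4.99 to 6.60 FPM on SFD and 3.02 to 5.35 FPM on HFD, 2 of the 8 could be tested, and neither passed. Star, their most abundant gene, was at 1.71 to 3.94 FPM. The adrenal enzymes Cyp11b1 and Cyp11b2 and the factor Nr5a1 were at 0 in all 16 kidneys. The enzyme Cyp11a1 could not be read, since it lies on chromosome 9, of which no gene had a count. Thus 4 of the 8 markers had counts. With a marker level as a covariate in the same edgeR fit, the averaged count of 6 members was 6 for the adipocyte, 3 for the distal nephron, 1 for the proximal tubule and 0 for the adrenal cortex markers. Of all genes, 1.46%, 1.64%, 0.958% and 0.259% were called lower in these fits in that order. Calls were lost with larger errors and with log2 fold changes that in part stayed. With the proximal tubule covariate Insig1 stood at -0.64 (SE 0.18 against 0.12 without it), Dhcr7 at -0.37 (SE 0.14 against 0.10) and Fdft1 at -0.29 (SE 0.14 against 0.10). The median over the 9 genes was -0.37 with this covariate and -0.35 with the distal nephron one, against -0.40 without. With the adrenal covariate it was -0.24, Idi1 stood at -0.73 (SE 0.19, adjusted p = 0.0788), Cyp51 at -0.43 and Dhcr7 at -0.23. The part of these cell types in the result was not tested beyond these fits.

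Genes of the circadian clock, whose levels follow the time of day, were read in the same way. Of 16 clock genes none passed in the averaged effect in either tissue, with log2 fold changes from -1.24 to 0.96 in the kidney. The times at which mice were killed are not given in the sources used here. Pearson's r with the members' mean over the 16 kidneys was below 0 for 11 of the 16 and above 0 for 5, with a median of -0.603. The genes farthest from 0, named after their values were seen, were at -0.803 for the repressor Per2, -0.784 for Hlf, -0.745 for Nr1d2 and -0.725 for Per3, and at 0.753 for Npas2 and 0.626 for Arntl on the other side. Nr1d1, a relative of Nr1d2, was at 0.264 and Clock at 0.192. On HFD, Per2 had an averaged log2 fold change of 0.96, SE 0.28, adjusted p = 0.0586 by edgeR and Npas2 of -1.24, SE 0.39, adjusted p = 0.0843. These r are a description over libraries that share the diet contrast, with no p, and the part of the clock in the result was not tested.

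In the aorta, 1 of the 9 genes, Insig1, was lower on HFD in the averaged effect, with high values in 4 of the 6 SFD aortae. Insig1 was at 139, 97.5 and 15.3 FPM in WT-SFD and at 19.9, 19.1, 29.2 and 25.1 FPM in WT-HFD. In KO-SFD it was at 69.3, 49.9 and 17.9 FPM and in KO-HFD at 20.2, 19.4, 19.9 and 16.1 FPM. Replicates 1 and 2 of both SFD groups were high, while replicate 3 of each lay below or within the HFD groups, so the diets overlapped. The averaged test gave a log2 fold change of -1.56 (SE 0.36, adjusted p = 0.0312 by edgeR). This is 1 of 9 genes against 3.47% of all 14796 genes tested, and neither a member nor any other gene was called lower at 0.001 (0%). The median log2 fold change of the 9 was -0.45 against -0.0049 for all genes, and 8 of the 9 were below 0 against 50.9% of all. Leaving out 1 aorta ended the call of Insig1 in 12 of 14 cases, which is every aorta except replicate 3 of WT-SFD and of KO-SFD (adjusted p = 0.0571 to 0.121), with log2 fold changes from -1.80 to -1.27 over the 14 omissions. Without WT-SFD replicate 3 the count was 3, with Hmgcs1 and Dhcr7, against 8.64% of all genes. Without KO-SFD replicate 3 it was 2, with Hmgcs1, against 5.13% of all.

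**Figure D4:**
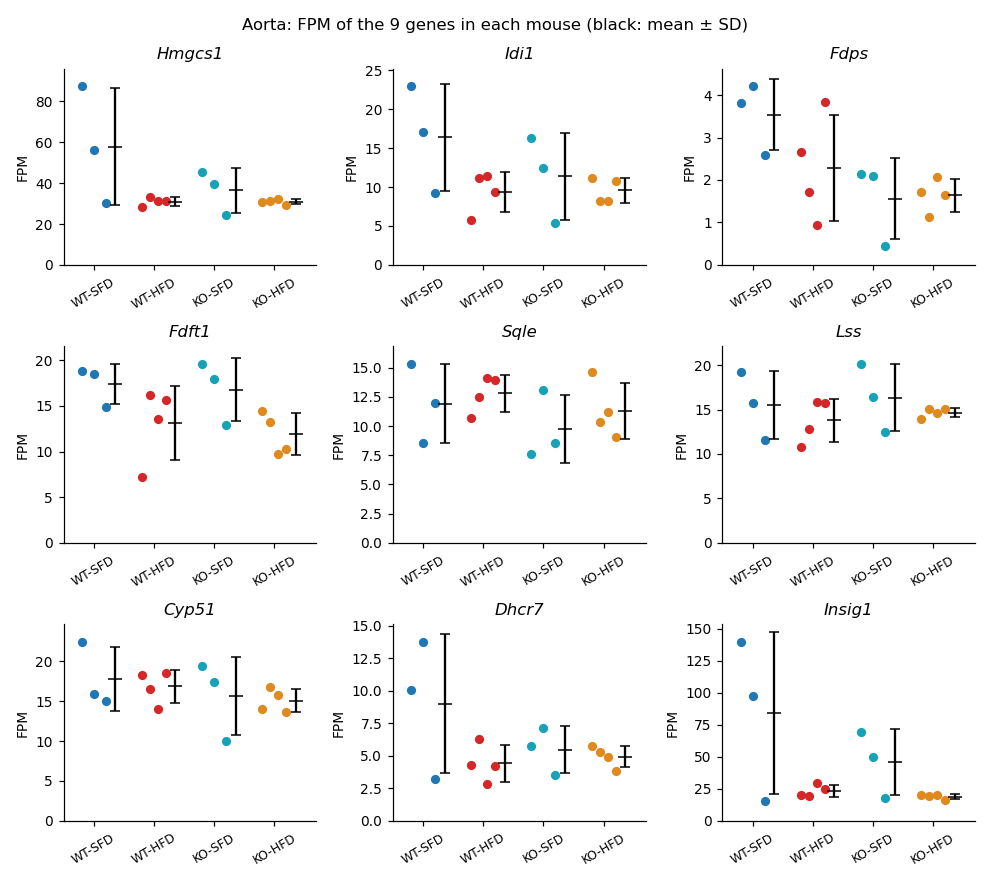
FPM of each of the 9 genes in every aorta (points, 3 mice per SFD group and 4 per HFD group, y axis from 0 FPM) with the group mean ± SD in black. For Insig1, replicates 1 and 2 of WT-SFD (139 and 97.5 FPM) and of KO-SFD (69.3 and 49.9 FPM) lie above all other aortae.

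The same 4 aortae were high in Hmgcs1. It was at 87.3, 56.0 and 30.5 FPM in WT-SFD, 28.3, 33.3, 31.2 and 31.1 in WT-HFD, 45.7, 39.4 and 24.2 in KO-SFD and 30.9, 31.4, 32.2 and 29.1 in KO-HFD. The HFD aortae lay within 28.3 to 33.3 FPM, a narrow band inside the range of SFD (averaged log2 fold change -0.57, SE 0.18, adjusted p = 0.108 by edgeR). Idi1 was at 22.9, 17 and 9.24 FPM in WT-SFD, 5.81, 11.2, 11.4 and 9.33 in WT-HFD, 16.3, 12.4 and 5.35 in KO-SFD and 11.1, 8.26, 8.16 and 10.8 in KO-HFD, again with replicates 1 and 2 of both SFD groups the highest (log2 fold change -0.52, SE 0.25, adjusted p = 0.283). Dhcr7, at 10.1, 13.7 and 3.18 FPM in WT-SFD and 4.28, 6.33, 2.81 and 4.22 FPM in WT-HFD, was at 5.76, 7.10 and 3.54 FPM in KO-SFD and 5.75, 5.26, 4.88 and 3.83 FPM in KO-HFD. Its groups overlapped (log2 fold change -0.58, SE 0.28, adjusted p = 0.284). The values of Fdft1 ran from 7.24 to 19.6 FPM over all 14 aortae, with a log2 fold change of -0.45 (adjusted p = 0.174).

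The averaged diet effects of the other 4 genes were smaller and did not pass the test. Cyp51, at 10.1 to 22.4 FPM, had a log2 fold change of -0.057 (SE 0.15), and Sqle, at 7.64 to 15.3 FPM, of 0.16 (SE 0.17). Lss, at 10.8 to 20.1 FPM, stood at -0.16 (SE 0.14). Fdps, at 0.453 to 4.20 FPM and 5 to 41 reads per aorta, stood at -0.26 (SE 0.36).

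Within WT aortae no member and no other gene of the 14796 was called by edgeR, although 16.7% of all genes had an unadjusted p under 0.05, and DESeq2 called 666 genes, 2 of them members. The members with an unadjusted p under 0.05 were 4: Insig1 (log2 fold change -1.85, SE 0.51, adjusted p = 0.0867), Hmgcs1 (log2 fold change -0.91, SE 0.26, adjusted p = 0.0908), Dhcr7 (log2 fold change -1.04, SE 0.39, adjusted p = 0.19) and Idi1 (log2 fold change -0.80, SE 0.35, adjusted p = 0.259). These 4 genes were called without WT-SFD replicate 3, against 8.52% of all genes called lower in that fit, which keeps in WT-SFD only 2 aortae, whose adipocyte markers averaged 7.24 and 6.87 on the log2 CPM scale (against 2.38 in replicate 3). They had log2 fold changes of -2.34, -1.21, -1.43 and -1.08 in that order. In KO aortae no gene was called by edgeR either (7.47% of all genes at an unadjusted p under 0.05, and 8 genes by DESeq2). Insig1, the 1 member at an unadjusted p under 0.05 in KO, stood at -1.26 (SE 0.52, adjusted p = 0.604 by edgeR). The median over the 9 genes was -0.65 in WT and -0.15 in KO. With 1 aorta left out at a time it ran from -0.82 to -0.42 in WT, highest without WT-HFD replicate 3. In KO it ran from -0.39 to 0.027, lowest without KO-SFD replicate 3 and above 0 without KO-SFD replicate 1. The test of the difference between the genotypes called no gene by edgeR and 2 by DESeq2, with 4.10% of all genes and none of the 9 at an unadjusted p under 0.05, and the median difference over the 9 was 0.57 (0.029 without WT-SFD replicate 1).

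Between the genotypes, none of the 9 genes was called in the aorta on SFD or on HFD, against 0.0811% of all genes on each diet (12 genes). On SFD, 2 members against 6.14% of all genes had an unadjusted p under 0.05. Of these, Hmgcs1 had a log2 fold change of -0.68 for KO against WT (adjusted p = 0.776 by edgeR). Fdps stood at -1.23 (adjusted p = 0.796) and was the 1 member whose SFD groups did not overlap, against 4.37% of all genes that were lower without overlap. The medians over the 9 genes for KO against WT were -0.55 on SFD and -0.14 on HFD. With 1 aorta left out at a time they ran from -0.83 to -0.15 on SFD, with the ends without WT-SFD replicate 3 and KO-SFD replicate 3. On HFD they ran from -0.16 to -0.021, nearest 0 without WT-HFD replicate 2. On SFD, library totals in place of TMM moved the median of all genes from -0.025 to 0.27 and that of the 9 from -0.55 to -0.30.

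Adipocyte transcripts stood out in the same 4 SFD aortae. Aortae had been freed of fat, and the mean log2 CPM (a count scaled to its library, as FPM) of 16 adipocyte markers was 7.24, 6.87 and 2.38 in WT-SFD, 2.79, 2.82, 3.69 and 3.48 in WT-HFD, 6.54, 5.36 and 2.38 in KO-SFD and 2.39, 3.29, 3.0 and 1.8 in KO-HFD. Replicates 1 and 2 of WT-SFD and of KO-SFD lay above 5, and all other aortae below 4. Summed over the list, the markers reached 480 to 4943 FPM on SFD, with a median of 2162, and 466 to 611 FPM on HFD. Their most abundant gene over all aortae was Plin4, none of the 16 was at 0 in all aortae, and 13 of the 16 fell on HFD in the averaged effect. The mean log2 CPM of endothelium markers was 6.25, 6.37, 6.28 and 5.80 in the 4 aortae, against at most 5.70 elsewhere, while the endothelium sums overlapped. The smooth muscle sum was 10883, 13463 and 11676 FPM in WT-SFD replicates 1 and 2 and KO-SFD replicate 1, against at least 16160 FPM elsewhere. Without these 4 aortae each SFD group kept 1 library, whose spread is then assumed to be that of the other groups. In that fit none of the 9 genes was called and Insig1 stood at 0.35, with a median of 0.35. With the adipocyte level as a covariate none was called, Insig1 stood at -0.016 (adjusted p = 0.995 by edgeR) and the median at 0.18.

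**Figure D5:**
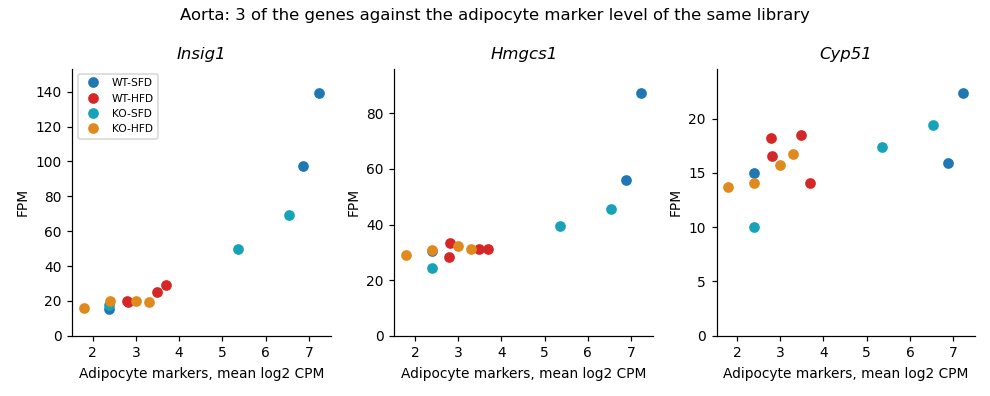
FPM of Insig1, Hmgcs1 and Cyp51 in each aorta (y axis, from 0) against the mean log2 CPM of 16 adipocyte markers in the same aorta (x axis), coloured by group. The 4 aortae with an adipocyte level above 5 hold the 4 highest values of Insig1 and of Hmgcs1, whereas Cyp51 overlaps between these and the other 10 aortae.

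The aortae fell into these 2 clusters, so no correlation over all 14 is given. The wider pathway followed the pattern of the 9 genes in part. In the averaged effect, 1 of 7 tested mevalonate genes fell (Acat2, -1.39, SE 0.27, adjusted p = 0.0208 by edgeR) and none of 10 later genes. Srebf2 rose by 0.31 on the log2 scale (adjusted p = 0.043). Of fatty acid synthesis, active in adipocytes, 8 of 11 genes fell, with a median of -3.03, among them the elongase Elovl6 (-4.56), the lipogenic factor Thrsp (-4.53), Fasn (-4.43) and Scd1 (-4.40). The part of adipocytes in these differences was not tested beyond the fits above.

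Of the 3 mice that gave both organs, WT-SFD replicate 1 held 139 FPM of Insig1 in its aorta, the highest of all aortae, and 62.1 FPM in its kidney, the lowest of its group. The KO-SFD mouse held 69.3 FPM in its aorta (replicate 1) and 53.4 FPM in its kidney (replicate 3). The KO-HFD mouse held 19.9 FPM in its aorta (replicate 3) and 44.4 FPM in its kidney (replicate 2). No test was made on these 3 mice.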

How the data were processed

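RNA of 14 aortae and 16 kidneys was sequenced in pairs of reads. Per the study's methods, aorta reads were trimmed with cutadapt, and kidney reads were trimmed by the company that sequenced them. The authors mapped the reads of both tissues with Tophat2 (GRCm38/mm10) and used featureCounts for counts per gene. They deposited raw counts, without normalisation, 1 column per mouse (0 columns were not used). The methods name a BiomaRt release for the annotation of genes. Strand setting, the gene models used for counting and treatment of reads with several matches are not given in the sources used here. Reads shared with overlapping genes or pseudogenes could therefore raise or lower a member's count. Genes of chromosomes 9, MT, X and Y were not analysed here, nor were Mvd, Nsdhl, Ebp, Sc5d, Scap, Mbtps1, Mbtps2 and Me1 of the lists. Single values of some other list genes are not reported here.

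Counts were normalised by TMM and filtered with filterByExpr in edgeR 4.0.16 (R 4.3.3), and glmQLFit was run on the 4 groups of each tissue in 1 fit, as in the study's use of edgeR with TMM. The 6 contrasts per tissue were tested with glmQLFTest, with Benjamini-Hochberg adjustment over all genes tested, and the SE is the log2 fold change divided by the square root of F. Calls were made at adjusted p values under 0.05, with the study's limit of 0.001 beside it. Depth was 6403699 to 13052870 counts per aorta (median 8998366) and 16354880 to 28331314 per kidney (median 19544128), and more counts give a smaller counting error. No 2 libraries of a group were copies (smallest chi-square per gene 8.38 and 10.9). The fit was also run on simulated counts with known changes and the same dispersion for every gene. Those counts did not hold the differences in adipocyte transcripts between aortae, so they do not show how the aorta calls depend on them.

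Samples were grouped by labelled genotype and diet. The named genes were the 9 members, the members of pathway lists that were called or among the 2 largest changes of a list, and the 5 genes most correlated with the members in the kidney (those of the aorta are not named, since no correlation across aortae is given). Srebf2 and the clock genes were named after their values were seen. The members and lists were chosen with earlier results of these data known. Alternatives were relative log expression factors, library totals, no filter, protein-coding genes, 2 groups per fit, DESeq2 1.42.0, marker covariates and leaving out each mouse. The adipocyte, proximal tubule and distal nephron covariates of the kidney and the fit without 4 aortae were added after seeing the data. Marker levels are mean log2 CPM (limma 3.58.1 and edgeR, prior count 2). Gene positions came from GENCODE vM21 and promoters from RefSeq.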

Additional observations from a re-analysis of the deposited data

Results flagged for a closer look

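Dixon's test, applied to 54 groups of 4 mice, marked 4 values of single kidneys, and chance alone marks about 1 in 20 groups. Sqle was at 35.2 FPM in KO-HFD replicate 3, with the other 3 kidneys of the group at 64.2 to 69.4 FPM. Insig1 was at 62.1 FPM in WT-SFD replicate 1, below the 89.0 to 92.9 FPM of the other 3. Idi1 was at 128 FPM in the same kidney, below the 172 to 177 FPM of the other 3. Fdps was at 6.07 FPM in WT-HFD replicate 4, above the 2.86 to 3.29 FPM of the rest of its group. Groups of 3 aortae were not tested.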

How the results depend on the processing

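No paired analysis was possible because the groups compared share no mouse and their replicate numbers pair nothing. Of 797 values of single members in the kidney under the alternatives, 694 kept direction and side of the limit, 75 lost the call, 6 gained one and 22 turned in sign. In the aorta these were 297, 13, 11 and 22 of 343. The kidney count of 6 lower members in the averaged effect was 1 at a limit of 0.001, 0 with the adrenal (median -0.24), 1 with the proximal tubule (median -0.37) and 3 with the distal nephron covariate (median -0.35), against a median of -0.40 without one. It was 6 with relative log expression factors, library totals, no filter, protein-coding genes, DESeq2 and the adipocyte covariate. The WT kidney count of 1 was 0 at a limit of 0.001, with only the 2 groups compared and with the adrenal, proximal tubule and distal nephron covariates, and 3 with DESeq2. The KO kidney count of 3 was 2 with only the 2 groups compared, where Sqle (adjusted p = 0.1) and Cyp51 (0.124) no longer passed and Dhcr7 did (0.0335). It was 4 with DESeq2, where Fdft1 passed, 1 with library totals and the adipocyte covariate and 0 at 0.001 and with the adrenal (median -0.29), proximal tubule (-0.43) and distal nephron (-0.41) covariates, against -0.47 without one. In KO, Idi1 was -0.58, -0.82 and -0.82 with these covariates in that order, against -0.88. Small kidney log2 fold changes turned in sign. With the adrenal covariate Fdps stood at 0.083 in WT, 0.10 in KO and 0.092 averaged, and Lss at 0.016 averaged. Hmgcs1 in WT was 0.0029 with library totals and 0.0020 with the adipocyte covariate. With the proximal tubule covariate Hmgcs1 was -0.037 in KO and -0.058 averaged, and Lss was 0.052 averaged with the distal nephron covariate.

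In the aorta, the averaged count of 1 was 0 at 0.001, with the adipocyte covariate (median 0.18) and without the 4 aortae rich in adipocyte transcripts (median 0.35). The WT aorta count of 0 was 2 with no filter and with DESeq2, and its median was -0.092 with the covariate and 0.10 without the 4 aortae. The KO aorta median was 0.27 and 0.41. Averaged values with the covariate were 0.036 for Hmgcs1, 0.18 for Idi1, 0.30 for Fdps, 0.18 for Lss, 0.15 for Dhcr7 and 0.26 for Cyp51. Without the 4 aortae they were 0.19 for Hmgcs1, 0.35 for Insig1, 0.43 for Idi1, 0.82 for Fdps, 0.24 for Lss, 0.48 for Dhcr7 and 0.38 for Cyp51. In WT without them Hmgcs1 was 0.026, Insig1 0.61, Idi1 0.030 and Dhcr7 0.48. Insig1 in KO was 0.11 with the covariate and 0.087 without them. The cause of these shifts was not tested.

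Leaving out 1 mouse at a time gave kidney counts of 4 to 6 averaged, 0 to 2 in WT and 0 to 4 in KO, and aorta counts of 0 to 3 averaged and 0 to 4 in WT. Kidney log2 fold changes of Hmgcs1 in WT ran from -0.070 to 0.057, and those of Lss from -0.13 to 0.035 in WT, -0.029 to 0.16 in KO and -0.046 to 0.048 averaged. Cyp51 in the aorta ran from -0.17 to 0.043 averaged. The median over the 9 genes ran from -0.83 to -0.15 for KO against WT on SFD in the aorta, and for the difference between genotypes from 0.029 to 0.87 in the aorta and -0.17 to 0.17 in the kidney. Fdps had the fewest reads of the 9 genes in the aorta, at 5 to 41. Scaling by library totals moved the median of all aorta genes to 0.10 for the WT diet effect, -0.11 for KO, 0.27 for KO against WT on SFD and -0.20 for the difference, against values within 0.03 of 0 with TMM.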

Other observations

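Of 8 tested genes that store and convert cholesterol in the kidney, 2 rose on HFD in the averaged effect by edgeR and none fell. Lipa, the lysosomal lipase that frees cholesterol from its esters, rose by 0.67 on the log2 scale (SE 0.11, adjusted p = 0.000875), from 158 ± 22.9 to 251 ± 50.3 FPM (SD, n = 8 per diet). Soat2, which esterifies cholesterol, rose by 1.44 (adjusted p = 0.0115), from 0.486 ± 0.25 to 1.30 ± 0.503 FPM, with at most 44 reads in a kidney. In the aorta, 1 of 5 tested genes of this list fell, the cholesterol carrier Npc2 (-0.53, adjusted p = 0.0357). None of 6 genes of the LXR receptors and their targets, which respond to oxysterols, passed in either tissue (median 0.039 in the kidney and -0.35 in the aorta), and none of 5 genes of the isoprenoid branches did (median 0.20 and 0.0045).

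Of 6 tested markers of tubule injury, 2 rose in the kidney. Sox9, a factor of regenerating tubule cells, rose from 0.447 ± 0.246 to 2.64 ± 0.783 FPM (log2 fold change 2.55, SE 0.29, adjusted p = 4.31e-05 by edgeR, n = 8 per diet). It was called in WT (2.21) and in KO (2.89) alone. Vcam1, an adhesion molecule, rose by 0.58 (adjusted p = 0.0076).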
